A study of Sus scrofa with 12 samples.

Results

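P-TEFb is the kinase that frees paused RNA polymerase II for productive elongation, and it is held inactive in the nucleus by the 7SK ribonucleoprotein. Of 28210 placed genes, 7 genes of this switch were followed by name in chromatin loops and RNA-chromatin contacts of pig longissimus muscle: HEXIM1 and HEXIM2, LARP7, MEPCE, CDK9, CCNT1 and CCNT2. CDK9 is the kinase and CCNT1 and CCNT2 encode its alternative cyclin partners, cyclin T1 and T2. HEXIM1 and HEXIM2 are the inhibitors that bind and silence the kinase on 7SK RNA, MEPCE caps the end of 7SK RNA, and LARP7 binds and stabilises it. HEXIM1 was first described as a gene induced by hexamethylene bisacetamide, an inducer of cell differentiation.

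The muscle came from 2-week-old male piglets of the lean Large White (LW) and the fatter Meishan (MS) breed, with no treatment or genetic change in either group. H3K27ac BL-HiChIP, which joins DNA ends that lie together in the nucleus and enriches those at the active mark H3K27ac, gave 2 LW and 2 MS libraries, and GRID-seq, which joins RNAs to the DNA they lie on, gave another 2 and 2. The sources used here do not say whether the replicates of a breed were different animals, so p-values measure the spread between libraries, which may be technical. A loop belonged to a gene when 1 of its 5-kb anchors lay within 1 kb of a gene end, and the strength of a loop was the −log10 of its false discovery rate (FDR). A gene's loop score added up these strengths, and its RNA-chromatin signal was the background-corrected signal of all RNAs summed over 1-kb DNA bins within 5 kb of its ends. Where a library listed no loop or no RNA at a gene, the value was set to 0, which does not show absence. The 7 genes were found by name.

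LW replicates 1 and 2 listed 57028 and 43282 loops, against 45061 and 33353 for MS, so replicate 1 listed more loops than replicate 2 in both breeds. The RNAs of the GRID-seq lists carried 7172517 to 9943666 reads per library. Muscle fibre markers had a loop in 11 or 12 of 12 genes per library, including ACTA1 and MYH1. None of the 3 adipocyte markers and 0 or 1 of the 4 blood and immune markers had one, while 1 of 2 neuron markers (SYP) and 1 of 2 liver markers (APOA1) did in every library. The 3 endothelial markers had loops in every library, and their summed loop score was 50.1 and 69.8 for LW against 83.7 and 149 for MS. Both MS libraries stood above both LW libraries at PECAM1, but not at CDH5 or KDR. None of the 3 passed the loop threshold given below. The satellite cell marker PAX7 scored 18.5 and 14.6 in LW and had no listed loop in either MS library. MYF5, the other satellite cell marker, scored 4.38 in LW replicate 1 and had no listed loop in the other libraries. The part of these cell types in the values below was not tested.

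With anchors within 1 kb of a gene end, HEXIM1 carried the most loop signal of the 7 genes in each of the 4 libraries. CCNT2 carried none. HEXIM1 (chr12:18267023-18270089, Sscrofa11.1) scored 51.6 and 52.6 in LW and 48.0 and 42.5 in MS. It stood between the 91.2 and the 94.0 percentile of the 15431 genes that had a loop in at least 1 library, whose median score among genes with a loop was 10.0 to 11.7 per library. LARP7 (chr8:110069565-110089789) came next by its higher values, at 50.4 and 10.7 in LW and 34.6 and 18.3 in MS, but its LW libraries lay far apart, and LW replicate 2 was below MEPCE. MEPCE (chr3:8356602-8361798) scored 15.7 and 17.04 in LW against 14.3 and 7.67 in MS. The kinase gene CDK9 (chr1:268277083-268280493) scored 15.0 and 2.08 in LW and 17.99 and 8.15 in MS, and CCNT1 (chr5:14768423-14808424) scored 19.3 and 3.03 in LW and 13.3 and 2.85 in MS. HEXIM2 (chr12:18251424-18263032) had 1 loop in each replicate 1 library, at 25.0 in LW and 9.48 in MS, and none in either replicate 2 library. With anchors within 5 kb, HEXIM2 had 4 and 8 loops in LW and 10 and 8 in MS, some of them at a HEXIM1 anchor. Its score was then 61.8 and 51.6 in LW and 68.7 and 55.9 in MS. HEXIM1 had 76.6 and 54.7 in LW and 48.0 and 42.5 in MS, so it led HEXIM2 in LW but not in MS. HEXIM2, CDK9, CCNT1 and LARP7 were higher in replicate 1 than in replicate 2 of both breeds, so their order against each other was not beyond the spread between libraries. A score sums over every 5-kb bin within 1 kb of a gene end. The number of such bins differs between genes, and scores were not divided by it or by gene length.

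**Figure D1:**
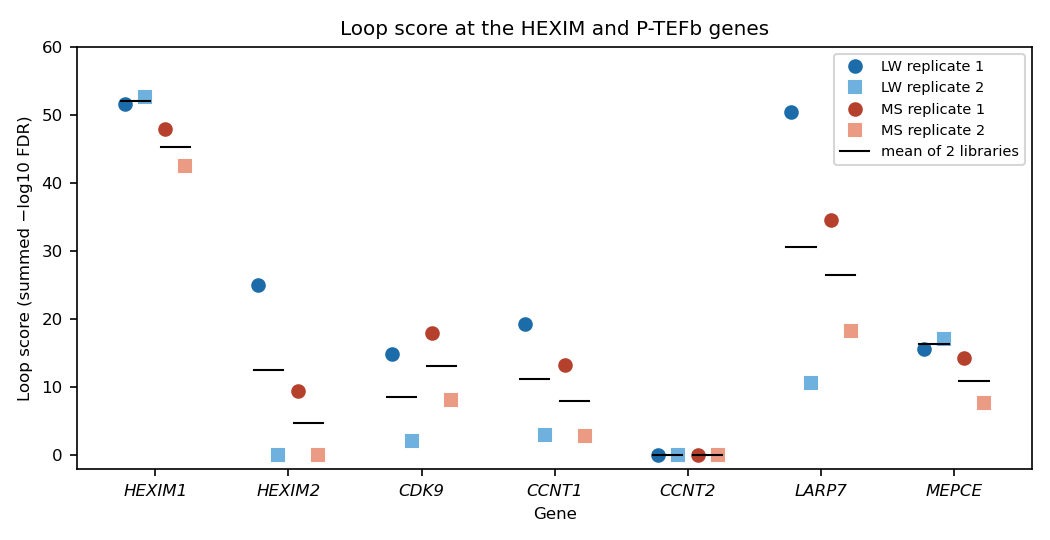
Loop score (summed −log10 FDR, linear axis) of the 7 genes in each library, with LW in blue, MS in red, circles for replicate 1, squares for replicate 2 and a line at the mean of each breed. HEXIM1 lies between 42.5 and 52.6 in all 4 libraries, LARP7 spreads from 10.7 to 50.4, and CCNT2 is at 0.

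The breeds were compared gene by gene to ask whether loops at these genes differ between LW and MS, and none of the 6 genes with a loop passed the test. Across all 15431 genes, limma on quantile-normalised log2(score + 1) placed 2.83% above the threshold used by the study for LW (a log2 difference over 1.5 with an unadjusted p under 0.05) and 2.5% above it for MS. Of the members, 0 passed in either direction, and 0 of all genes had a Benjamini-Hochberg adjusted p under 0.05, with 822 genes at an unadjusted p under 0.05. The raw HEXIM1 scores of both LW libraries exceeded those of both MS libraries, as did those of MEPCE, but this held for 21.1% of all genes tested. After normalisation the HEXIM1 difference, LW minus MS, was −0.06 on the log2 scale (SE 0.76, limma adjusted p = 1.00, n = 2 and 2), with a 95% interval from −1.87 to 1.74. MEPCE differed by 0.20 (SE 0.77, adjusted p = 1.00). The largest difference was that of CDK9, −1.33 (SE 0.98, adjusted p = 0.992), where LW replicate 2 was low and the other 3 libraries overlapped. It became −0.25 without LW replicate 2 and −2.54 without LW replicate 1, and passed in neither case. LARP7, CCNT1 and HEXIM2 differed by −0.31, −0.09 and 0.22, with SE of 0.97, 0.99 and 1.63. These intervals are wide, so equal looping in the breeds is not shown. An exact permutation test of 2 against 2 libraries cannot go below p = 0.33 and was not used for calls.

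The loops of HEXIM1 converged on 2 adjoining anchors, chr12:18265001-18270000 and chr12:18270001-18275000, and the second also holds an end of ACBD4, an acyl-CoA binding protein gene 1746 bases away. Loops from the second anchor cannot be given to 1 of the 2 genes. Apart from the 5-kb loop between the anchors, they were listed in LW only. Their strengths were 2.64 to 10.45 in LW replicate 1, the highest into the ACBD4 body, and 8.57 in LW replicate 2. The HEXIM1 lead over LARP7 in LW replicate 1, 51.6 against 50.4, rests on them. LW listed 6 and 7 loops per library and MS 6 and 5, against a median of 2 among genes with a loop, and they made 18 distinct loops of 5 to 130 kb, measured from anchor to anchor. The strongest ones ran a short way toward the lower coordinates, where HEXIM2 and a lncRNA lie. The loop to chr12:18235001-18240000, 30 kb away in the body of the lncRNA gene LOC110255993, had a strength of 30.1 in LW replicate 1 and 14.2 and 11.9 in the MS libraries. LW replicate 2 did not list it, but listed a loop of 20.8 to a bin 20 kb away. The loop to chr12:18255001-18260000, inside HEXIM2, had strengths of 19.8 and 13.5 in the MS libraries and was not listed in LW. One bin aside, LW replicate 1 held a loop of 25.0 that joined the same part of HEXIM2 to chr12:18260001-18265000 and was counted for HEXIM2. The strongest loop thus lay between 10 and 30 kb from HEXIM1 in every library, in a different bin in LW replicate 1, LW replicate 2 and MS.

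The longer HEXIM1 loops had strengths of 2.03 to 8.57, beside medians of 3.65 to 4.33 over all loops of a library, and reached a small set of neighbours on both sides. A loop of 95 kb to the body of MAP3K14, the NF-kappaB-inducing kinase, had a strength of 3.61 in LW replicate 2 and 3.53 in MS replicate 2. MAP3K14 was met by other single bins in LW replicate 1, LW replicate 2 and MS replicate 1, at 2.24 to 6.45. The body or end of FMNL1, a formin, was reached in LW replicates 1 and 2 and in MS replicate 1 at strengths of 2.03 to 3.40. On the other side, the anchor chr12:18335001-18340000 at the ends of NMT1, an N-myristoyltransferase gene, and DCAKD was joined with a strength of 8.57 in LW replicate 2 and 4.60 in MS replicate 2. A loop of 5 kb between the 2 HEXIM1 anchors themselves was listed at 6.61 in LW replicate 2 and 6.26 and 8.98 in MS. Far genes of loops listed in 1 library, here and below, were named after their values were seen.

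**Figure D2:**
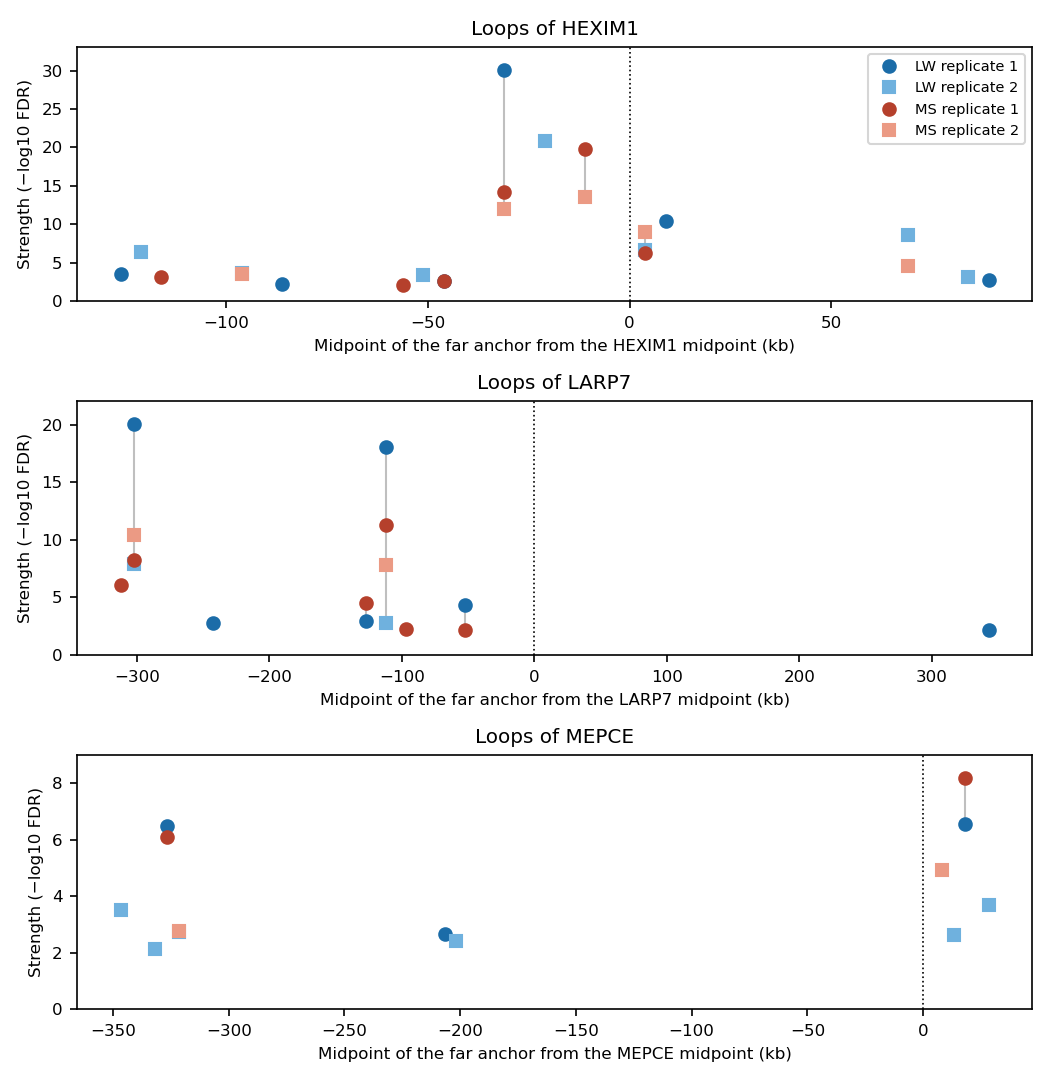
Strength (−log10 FDR, linear axes from 0) of each loop of HEXIM1, LARP7 and MEPCE against the distance of its far anchor from the gene midpoint in kb, with LW in blue, MS in red, circles for replicate 1 and squares for replicate 2. Grey lines join the values of 1 loop in several libraries, the strongest HEXIM1 loops lie on the lower side at −31.1 kb and nearer, and LARP7 has loops in all 4 libraries at −112 and −302 kb.

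LARP7 had the most loops listed in all 4 libraries, 2 of 8, beside 1 of 5 for CDK9. Its loops reached up to 335 kb, second to those of MEPCE, which reached up to 345 kb. All 8 of its loops started from chr8:110085001-110090000, an anchor it shares with an end of ZGRF1, a helicase-related gene 131 bases away, so a loop there cannot be given to 1 of the 2 genes. The loop of 310 kb to chr8:109775001-109780000 reached 20.05 and 7.92 in LW and 8.25 and 10.4 in MS, and neither breed stood above the other. The loop of 120 kb to chr8:109965001-109970000 reached 18.1 and 2.79 in LW and 11.3 and 7.86 in MS. No gene end or gene body of the RefSeq table lay at either far anchor. The differences, LW minus MS, were 0.28 (SE 0.69, limma adjusted p = 0.970) and −0.55 (SE 0.90, adjusted p = 0.964) on the log2 scale of quantile-normalised strength. Without LW replicate 1, the library with the highest value, the 120-kb loop became higher in MS past the size limit (−2.03, limma unadjusted p = 0.0314). Of the 4632 loops listed in all 4 libraries, 0% had an adjusted p under 0.05 in limma, and 255 had an unadjusted p under 0.05. Loops of 135 kb (2.98 and 4.48) and 60 kb (4.34 and 2.19, at the pseudogene LOC110255238) were found in the replicate 1 library of LW and MS.

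CDK9 held the third loop that was listed in all 4 libraries. It ran 40 kb from chr1:268275001-268280000 to the ends of TOR2A, a torsin gene, and SH2D3C, a signalling adaptor gene, at 4.00 and 2.08 in LW and at 6.44 and 3.94 in MS. Its difference was −1.02 on the log2 scale (SE 0.63, limma adjusted p = 0.911), and MS replicate 2 lay just below LW replicate 1. A loop of 20 kb into the body of FPGS, the folate polyglutamating enzyme whose gene starts or ends 805 bases from CDK9, was listed at 5.12 in LW replicate 1 and at 3.76 and 4.21 in MS. CDK9 also met AK1, the adenylate kinase gene of muscle, over 80 kb in LW replicate 1 (5.85) and over 85 kb in MS replicate 1 (5.72). The 2 far bins adjoin and were listed as different loops.

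MEPCE loops fell into a near group and a far group. The near group, 5 to 30 kb long, mostly lay in PPP1R35, a centrosomal protein gene. Its loop of 15 kb had 6.55 in LW replicate 1 and 8.18 in MS replicate 1. The anchor of the loops into PPP1R35, chr3:8360001-8365000, itself holds an end of PPP1R35. The far anchor of the 15-kb loop holds its other end. These loops cannot be given to 1 of the 2 genes. The far group spanned 200 to 345 kb, and its best loop joined chr3:8355001-8360000 to the ends of CNPY4 and MBLAC1 over 325 kb at 6.48 in LW replicate 1 and 6.08 in MS replicate 1. The next bin, 320 kb away, was joined in both replicate 2 libraries, at 2.72 in LW and 2.75 in MS. The anchor chr3:8355001-8360000 also holds an end of ZCWPW1, a histone-reader gene 407 bases from MEPCE. LW replicate 2 had 6 loops and the other libraries 2 or 3.

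Of the cyclin genes, CCNT1 had a loop in every library and CCNT2 had none. CCNT1, a gene of 40002 bases with a separate anchor at each end, had 3 and 1 loops in LW and 5 and 1 in MS. The anchor at its lower end met C5H12orf75 over 15 kb at 12.3 in LW replicate 1 and 2.78 in MS replicate 1. The anchor at its higher end met a bin without a gene over 55 kb at 3.42 in LW replicate 1, 3.03 in LW replicate 2 and 2.85 in MS replicate 2. MS replicate 1 met the adjoining bin, at an end of the adenylyl cyclase gene ADCY6, at 3.01. CCNT2 (chr15:16974364-17021293), which overlaps MAP3K19, had no listed loop within 1 kb of its ends. The nearest anchor, chr15:17015001-17020000, lay inside the gene, 1293 bases from its end and just outside the 1-kb limit. It belonged to a loop of 30 kb with a strength of 3.01 in LW replicate 1. The next nearest anchor was 238708 bases away. Just inside the limit, the HEXIM1 and LARP7 anchors covered the gene ends themselves.

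The 7 genes together had 50 distinct loops, of which 35 were found in LW and 29 in MS. The breeds shared 14 of them, which is 40.0% of the LW loops and 48.3% of the MS loops, beside 34.7% and 44.2% for all loops of the series. Allowing each anchor to shift by 1 bin raised the shared loops from 14 to 23 of the 35 in LW. Of the 50 loops, 35 were listed in 1 library and 3 in all 4, or 6.0%, beside 3.78% of all 122406 loops. Of 8 member loops listed in exactly 2 libraries, 5 joined the replicate 1 libraries of both breeds, 2 the replicate 2 libraries of both breeds, 1 the MS libraries and 0 the LW libraries. Across the series 44.8% of the loops of exactly 2 libraries joined libraries of the same number and 34.6% libraries of the same breed. With 8 loops this is a description.

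By the distance between 4 normalised log2 scores, the genes on other chromosomes with the pattern most like HEXIM1 were TSC22D1 (0.16), LOC110257279 (0.17) and MOB3C (0.19). PRAM1, MIR196A-2 and ASCC2 lay closest to HEXIM2 (0.15 to 0.24), and CPNE2, ETS1 and MFGE8 to CDK9 (0.49 to 0.56). LOC110255801, TRNAN-GUU and ALOX5AP lay closest to CCNT1 (0.20 to 0.36), HOXC10, LOC110255523 and MPHOSPH9 to LARP7 (0.29 to 0.33), and MAP4K5, NEMF and LOC102161833 to MEPCE (0.26 to 0.29). These distances rest on 4 libraries and were not tested.

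In GRID-seq, the RNA-chromatin signal of both MS libraries lay above that of both LW libraries at 4 of the genes, HEXIM1, HEXIM2, CCNT1 and MEPCE. Windows held 14 to 22 bins, so levels were not compared between genes. The same order of the breeds was seen at 20.5% of the 23302 genes tested. HEXIM1 showed 31.5 and 42.5 in LW and 90.5 and 149 in MS, and the breeds did not overlap. HEXIM2 had 11.08 and 24.6 in LW and 53.9 and 88.5 in MS. MEPCE had no listed RNA in either LW library and 40.1 and 43.4 in MS. CCNT1 had none in LW and 9.42 and 14.0 in MS. Less RNA per cell and fewer cells of a type cannot be told apart in bulk muscle.

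Endothelial markers went the same way in this measure. It sums the RNAs that lie at a marker gene. No endothelial, blood or immune marker had its own RNA listed, so these sums are not levels of the markers' RNAs. The summed signal of the 3 was 0.501 and 2.11 for LW and 59.2 and 36.1 for MS, with both MS libraries above both LW libraries at 2 of them, KDR and PECAM1. KDR had no listed RNA in LW and 15.1 and 12.3 in MS. It passed the threshold given below as higher in MS (limma unadjusted p = 0.0190, adjusted p = 0.214). CDH5 had no listed RNA in 3 of the 4 libraries. The 12 muscle fibre markers summed to 448805 and 365694 for LW against 262514 and 207163 for MS, and the 4 blood and immune markers to 854 and 766 against 223 and 204. Of these, 1 muscle fibre marker and 2 blood and immune markers passed the same threshold as higher in LW. They were MYLPF (limma unadjusted p = 0.00507, adjusted p = 0.162), CD3E (0.00481 and 0.160) and HBB (0.0447 and 0.299). The part of these cell types in the signal of the 7 genes was not tested.

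Against the threshold of the study for RNA-chromatin signal (a log2 difference over 2 with an unadjusted p under 0.05), MEPCE, CCNT1 and HEXIM2 passed as higher in MS and HEXIM1 did not. That is 3 of 6 genes tested, where 8.28% of all genes passed as higher in MS and 7.49% as higher in LW. With adjustment over all genes, 0 genes had an adjusted p under 0.05 in limma, and 3676 had an unadjusted p under 0.05. MEPCE had an unadjusted p of 0.00421 and an adjusted p of 0.154. For CCNT1 these were 0.0181 and 0.211. No fold is given for MEPCE and CCNT1, since LW had no listed RNA there and was set to 0. HEXIM2 differed by −2.66 on the log2(signal + 1) scale (SE 0.90, unadjusted p = 0.0467, adjusted p = 0.305), and HEXIM1 by −2.34 (SE 0.99, unadjusted p = 0.0825, adjusted p = 0.422). MEPCE passed under every alternative run, but each kept the 0 set for LW where no RNA was listed. LW thus showed no spread in any of them, and passing them is not separate evidence. CCNT1 rests on LW values set to 0 in the same way. HEXIM2 lost its call in 8 of the alternatives, among them the limma fits without quantile normalisation, where its unadjusted p was 0.0761, and without LW replicate 1 (0.0757) or LW replicate 2 (0.0888). CCNT1 lost it with a window of 1 kb, where its fitted difference fell below the size limit, and with a replicate block (unadjusted p = 0.0664), and it had no signal to test without the RNA of the unnamed gene ENSSSCG00000048037.

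HEXIM1 and HEXIM2 are 3990 bases apart, and 7 of the 14 bins of HEXIM1 are also among the 22 bins of HEXIM2, so the 2 signals are not independent. An RNA was listed over a stretch of neighbouring bins, with 22 to 93 kb for the 13 stretches described at HEXIM1. Of these, 11 had their highest bin within 6 kb of the HEXIM1 midpoint. That bin touched HEXIM1 in 6 of the 11 stretches, lying wholly inside the gene in 2, and touched the neighbouring ACBD4 in the other 5. It touched HEXIM2 in 0 of the 11, so the signal peaked around the HEXIM1 and ACBD4 ends and cannot be given to 1 of these genes. All 12 stretches described at HEXIM2 were among those 13, and 1 had its highest bin within 6 kb of the HEXIM2 midpoint. Stretches of RNAs on other chromosomes were 23 kb long more often than any other length in every library, so neighbouring bins carry the same signal and were not counted as separate evidence.

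**Figure D3:**
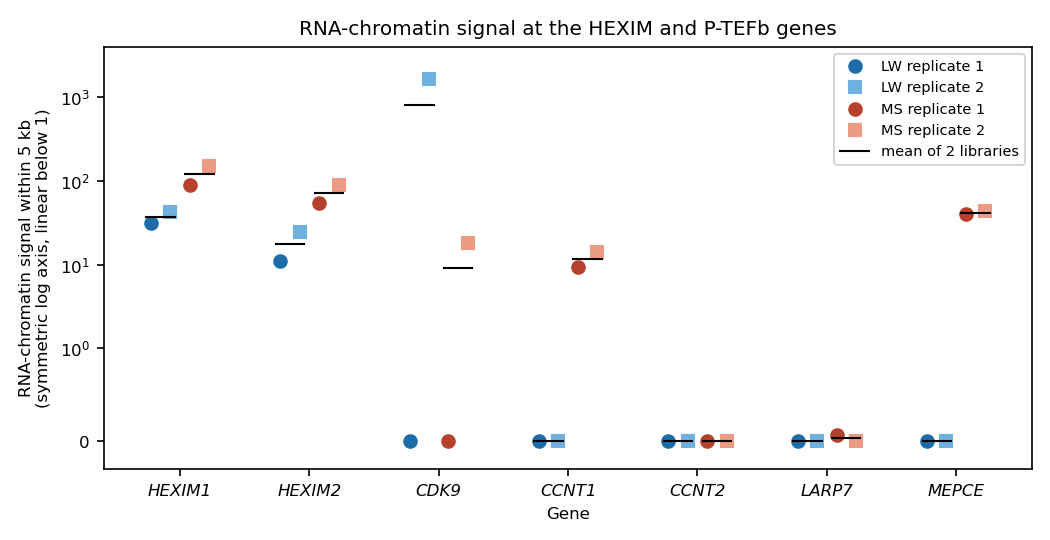
RNA-chromatin signal within 5 kb of the ends of the 7 genes in each library, on a symmetric log axis that is linear below 1, with LW in blue, MS in red, circles for replicate 1, squares for replicate 2 and a line at the mean of each breed. Both MS libraries lie above both LW libraries at HEXIM1, HEXIM2, CCNT1 and MEPCE, and 1 LW library stands at 1642 at CDK9.

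Every RNA at HEXIM1 came from another chromosome, and there were 2 and 4 RNAs per library for LW and 4 and 6 for MS. Only 2.05% to 7.97% of all genes had 4 or more RNAs in a library, and 1.58% had 6 or more in MS replicate 2. RNA of TTN, which encodes the giant muscle protein titin, was there in all 4 libraries, at 11.7 and 18.5 in LW and 25.2 and 23.1 in MS. RNA of the unnamed gene ENSSSCG00000048037 had 0.246 in LW replicate 2, at the edge of a stretch whose highest bin lay 35.9 kb away, and 25.1 and 21.5 in MS. RNA of ENSSSCG00000048856 was found in MS alone, at 18.5 and 24.3, and that of ENSSSCG00000044834 in the replicate 2 libraries, at 4.96 in LW and 13.0 in MS. The highest single contribution was 41.9 from ZBTB16, a zinc finger repressor gene, in MS replicate 2 only. A chromosome 6 transcript of 1319 bases that the authors outlined anew in each library (Tx.295) added 21.7 in MS replicate 1.

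RNAs of TTN, ENSSSCG00000048037 and ENSSSCG00000048856 reached more genes in MS across the genome as well. TTN RNA lay within 5 kb of 12.3% and 11.9% of all genes in LW against 22.2% and 18.5% in MS. ENSSSCG00000048037 RNA reached 9.85% and 17.7% in LW and 21.6% and 25.2% in MS, and ENSSSCG00000048856 RNA 3.38% and 4.93% against 7.09% and 11.8%. By reads, TTN RNA took 11.2% and 10.2% of the listed reads in LW against 9.73% and 8.85% in MS, so its reads went the other way from its reach. ENSSSCG00000048037 RNA took 3.99% and 4.20% for LW against 5.31% and 5.83% for MS, and ENSSSCG00000048856 RNA 2.43% and 2.21% against 2.86% and 2.60%. ENSSSCG00000044834 RNA went the other way in reach, with 11.07% and 9.49% of genes in LW and 7.48% and 6.42% in MS, while its share of reads was 11.08% and 10.1% for LW against 19.4% and 17.8% for MS.

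At MEPCE, ENSSSCG00000044834 RNA gave 19.1 of the signal in MS replicate 1, and the chromosome 6 transcript (Tx.436 in that library) gave 18.7 in MS replicate 2. That transcript had 91537 and 104231 reads in LW and 161798 and 197833 in MS. Both stretches had their highest bin within 0.7 kb of the MEPCE midpoint, with a signal of 1.71 and 1.77 in that bin. In LW the lists held no RNA within 5 kb of MEPCE.

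**Figure D4:**
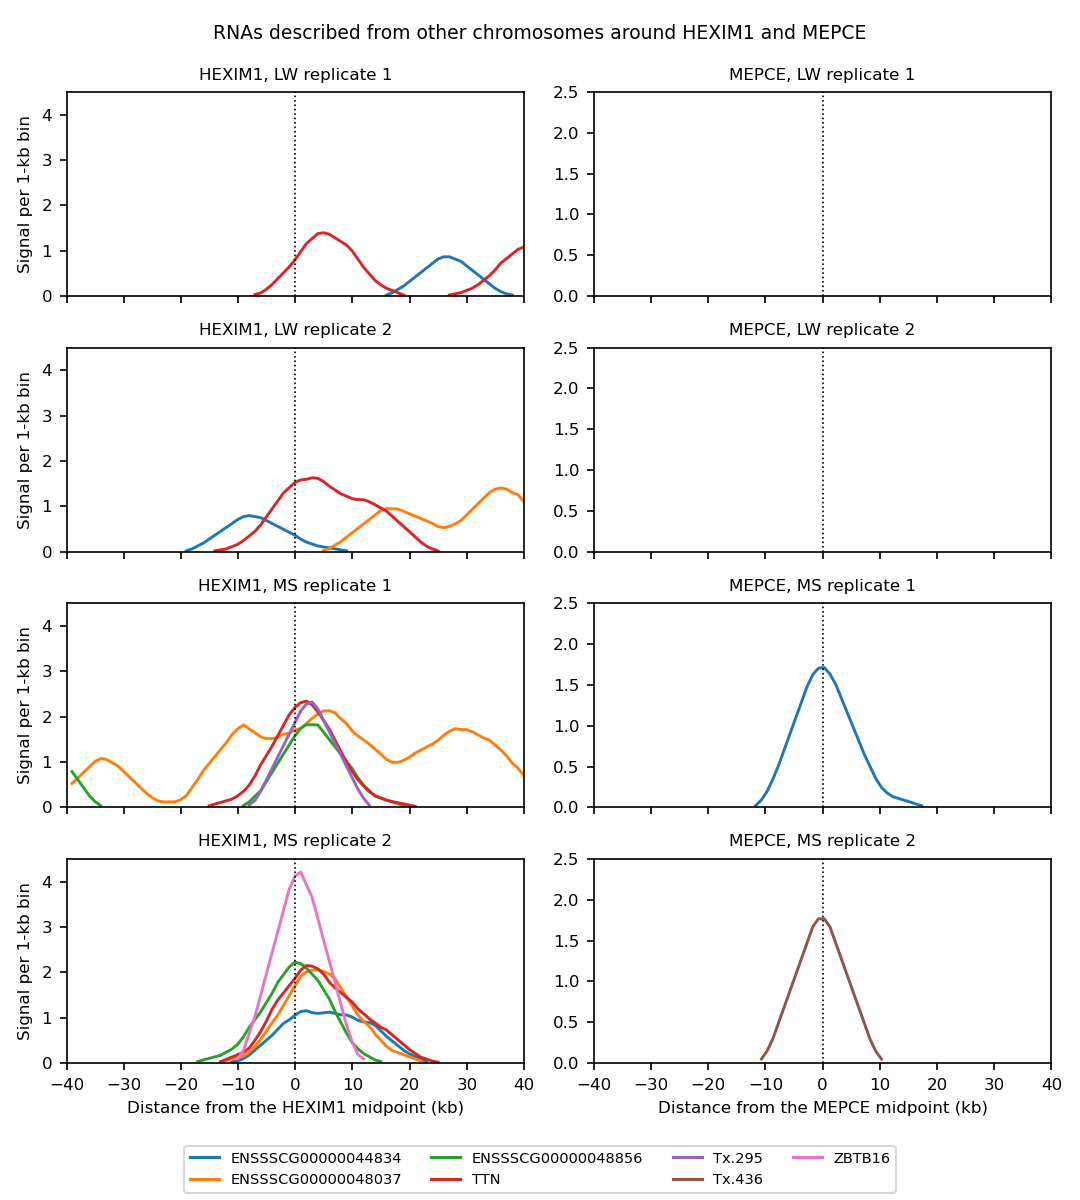
Signal per 1-kb bin of the RNAs described near HEXIM1 (left) and MEPCE (right) against the distance from the gene midpoint in kb, with 1 row per library and 1 colour per RNA. Of the 13 stretches drawn that reach HEXIM1, 11 peak within 6 kb of its midpoint, at 2.34 or less outside ZBTB16, and signal over MEPCE is present in the MS libraries alone.

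CCNT1 was reached by ENSSSCG00000048037 RNA alone, and not at the same end in the MS libraries. In MS replicate 1 the highest bin lay 15.9 kb below the gene midpoint, toward the lower end, and in MS replicate 2 it lay 19.1 kb above it, toward the higher end. LARP7 had a trace of TTN RNA (0.0642) in MS replicate 1, at the edge of a stretch whose highest bin lay 26.2 kb away, and CCNT2 had no listed RNA. CDK9 had no listed RNA in LW replicate 1 and MS replicate 1. It had 17.98 in MS replicate 2 from ENSSSCG00000048856 RNA, and 1642 in LW replicate 2. Of the last value, 1641 came from RNA of AK1 on the same chromosome, and the CDK9 difference of 3.14 (SE 4.11, adjusted p = 0.735) rests on that library and RNA. AK1 RNA was listed in all 4 libraries, with 3172 and 3347 reads in LW and 1522 and 1833 in MS. Its bins came no nearer to CDK9 than 39.5 kb in LW replicate 1 and 45.5 and 44.5 kb in MS, whereas LW replicate 2 had a stretch of 28 kb over CDK9 with up to 153 per bin, beside 2990 over AK1 itself. The AK1 loops of CDK9 described above were in the replicate 1 libraries of the other assay.

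No RNA of the 7 genes was in the GRID-seq lists, and no listed RNA overlapped their positions. The lowest read number of a listed RNA was 432 to 455, so their RNAs are not shown to be absent from chromatin. NMT1 RNA, from the gene at the far end of a HEXIM1 loop, was listed in MS replicate 2 only, with 1986 reads, and its nearest bin was 5.91 kb from HEXIM1, outside the 5-kb window.

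Around this switch, 37 of 39 further genes of transcription elongation were in the gene table. Of 35 with a loop, 1 passed as higher in MS and 0 as higher in LW, beside 2.5% and 2.83% of all genes tested, which is near the background for so few genes. A loop was present in every library at 14 of the 35, beside 49.4% of all genes with a loop. The gene that passed was SUPT5H, the large subunit of the pausing factor DSIF, scoring 2.65 and 2.02 in LW and 8.37 and 7.49 in MS (difference −2.22, unadjusted p = 0.0260). AFF4, a scaffold of the super elongation complex, scored 21.6 and 25.5 in LW against 26.7 and 46.7 in MS, and AFF1 of the same family scored 23.3 and 17.2 against 20.8 and 21.1. The median loop difference of the 35 genes was −0.15 on the log2 scale, beside 0.02 over all genes tested.

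SUPT5H apart, no gene of the other pathway groups passed for loops. The genes that free P-TEFb from 7SK were led by JMJD6, SRSF2 and PPP1CA, and SRSF2 scored 13.6 and 14.4 in LW against 32.1 and 15.1 in MS. The pausing factors were led by NELFCD and NELFE, subunits of the pausing complex NELF, and NELFCD stood at 18.7 and 6.95 in LW and 26.3 and 10.2 in MS. PAF1, LEO1 and CDC73 led the polymerase-associated elongation factors, and PAF1 scored 17.6 and 0 in LW and 2.51 and 5.06 in MS. Of the other transcription kinases and cyclins, MNAT1, a partner of CDK7, led with 39.5 and 20.9 in LW and 33.0 and 27.6 in MS, followed by CDK12 and CDK7.

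For RNA-chromatin signal, 2 of the 37 further genes passed as higher in LW and 3 as higher in MS, near the 7.49% and 8.28% of all genes, and their median difference was −0.06 beside −0.05 for all genes. PPP1CA, a subunit of protein phosphatase 1, had 2577 and 2008 in LW and 101.1 and 63.7 in MS, of which RNA of CARNS1 on the same chromosome made 96.5%. CTR9, of the PAF complex, had 1244 and 2987 in LW and 11.9 and 220 in MS, led by RNA of EIF4G2. EAF1 of the super elongation complex had 31.3 and 0 in LW and 2800 and 2449 in MS, almost all of it RNA of SH3BP5 on the same chromosome. PPM1G, a phosphatase that acts on the 7SK complex, had no listed RNA in LW replicate 1 and 30.0 in LW replicate 2. It had 296 and 623 in MS, led by RNA of TRIM54. ELL2, an elongation factor of the super elongation complex, had no listed RNA in LW and had 29.4 and 19.7 in MS. Whether these values follow from the RNAs named was not tested.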

How the data were processed

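The authors mapped BL-HiChIP reads to Sscrofa11.1 with BWA-MEM and called loops per library with FitHiChIP from H3K27ac peaks to 5-kb bins. The value the authors deposited per loop was read as an adjusted p-value (FDR), since the lists carry no column names and end just under 0.01. For GRID-seq the authors deposited, per RNA, a whole number read as its read count and, per 1-kb bin, a background-corrected signal of at least 0.02. Gene positions came from RefSeq by symbol (7 of 7 matched), which gives no strand, so both gene ends were used. Scores were quantile-normalized and compared with limma 3.58.1 in R 4.3.3 on log2(value + 1), with Benjamini-Hochberg adjustment, after testing on simulated data. This scale understates changes of low genes. Members, lists and the rule for named genes (far-anchor genes of loops in at least 2 libraries, RNAs within 5 kb, the 3 nearest patterns, pathway genes past a threshold or the 3 highest) were chosen with earlier results of these data known. Values of some listed RNAs and genes are not reported here, so the RNAs described do not add up to each gene's signal. Other computations used Python 3.11.15, pandas 2.3.3 and matplotlib 3.10.9.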

Additional observations from a re-analysis of the deposited data

How the results depend on the processing

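The number of genes past the size limit with an unadjusted p under 0.05 depended on the setting for loops, with 436 genes higher in LW and 386 in MS as reported. Without quantile normalization 862 were higher in LW, with a pseudocount of 0.1 957 were higher in MS, and with the number of loops in place of strength there were 78 and 68, of which 2 genes had an adjusted p under 0.05. With a replicate block there were 696 and 593. Leaving out 1 library gave 300 to 884 for LW and 448 to 876 for MS in loop score, and 1380 to 3231 for LW and 1640 to 3016 for MS in RNA-chromatin signal. For loops of all 4 libraries, 151 and 43 passed without normalization, and leaving out 1 library gave 61 to 127 and 87 to 142.

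No member's loop score was called under any of the alternatives run, and the signs of the differences changed for 5 of the 6 genes with a loop. HEXIM1 became 0.20 without normalization, 0.28 with an anchor window of 5 kb and 0.032 by number of loops, and ranged from −0.23 to 0.13 when 1 library was left out. HEXIM2 became −0.76 with a pseudocount of 0.1, −0.40 at 5 kb and −0.26 by number, with −1.65 to 2.34 on leaving out a library. CCNT1 became 0.29 without normalization and 1.83 at an FDR of at most 0.001, with −1.10 to 0.85, and MEPCE became −0.24 at an FDR of at most 0.001 and −0.24 at 5 kb, with −0.074 to 0.49. CDK9 stayed higher in MS in all of them, with −2.54, without LW replicate 1, to −0.25, without LW replicate 2, on leaving out a library. LARP7 ranged from −1.41 to 0.69, and its loops of 310 and 120 kb from −0.60 to 1.12 and from −2.03 to 0.88, where the second passed the size limit (−2.03) without LW replicate 1.

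For RNA-chromatin signal, HEXIM1 passed the threshold with a window of 1 kb (−2.33). The alternatives without ENSSSCG00000048037 and AK1 RNA were chosen after seeing the data. HEXIM2 no longer passed without normalization (−1.99), with a pseudocount of 0.1 (−2.72), with genes of at least 2 libraries (−2.63), with a replicate block (−2.66), by number of RNA and bin pairs (−0.99) and without ENSSSCG00000048037 RNA (−2.09), with −3.11 to −2.35 on leaving out a library. CCNT1, whose fitted difference depends on the pseudocount and is no fold, no longer passed with a replicate block (−3.46) or at 1 kb (−1.96), and has no signal without ENSSSCG00000048037 RNA. CDK9 became −1.38 without AK1 RNA, and ranged from −1.91, without LW replicate 2, to 8.26 on leaving out a library. The cause of these changes was not tested, apart from the RNAs left out by construction.

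The 14 loops shared by the breeds became 23 when anchors could shift by 1 bin, 9 at an FDR of at most 0.001, and 7 to 11 without 1 library, the lowest without LW replicate 1. The labels do not say whether libraries of the same replicate number were paired, and only 2 pairs share a number. Differences between the replicates of the breeds correlated by 0.35 across genes for loops and −0.01 for RNA-chromatin signal. Loop scores thus went in part with the replicate number, which the main fit left out, and the cause was not tested. The start-only window was not run, since the gene table gives no strand, nor was a test of the members' own RNA reads, since none was listed.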
